A study of Mus musculus with 19 samples.

Results

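Ribosome footprints of Fmr1 knockout (KO) mouse hippocampal slices were compared with those of wild-type (WT) slices. All footprint libraries with a column in the deposited tables were used, 3 KO and 4 WT, and no RNA library entered the test. These are 7 of the 14 libraries in the tables, and the other 5 of the 19 labelled samples were not analysed here. Of 14459 genes listed, 14438 had enough counts to be tested.

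All mice were males on a C57BL/6 background, 28 to 35 days old, and the KO allele, a constitutive knockout of the whole animal, had been backcrossed for more than 10 generations. Neither group received a treatment other than cycloheximide at 100 µg/ml, which all slices shared. Each biological replicate pooled 8 to 10 slices of 400 µm from 6 to 8 animals, left to recover at 30 °C for 3 to 4 h. P-values therefore refer to the spread of the deposited values between such pools. That spread was smaller than counting noise would give, so p-values may be too small. The slices are called hippocampal-cortical in one label, and the protocol describes cutting off CA3 to enrich CA1. Tissue was broken up without detergent, NP-40 was added afterwards, and the clarified lysate was digested with RNase A and RNase T1 before monosomes were collected from sucrose gradients.

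Ribosome profiling sequences the stretches of mRNA that a ribosome shields from nuclease, so the footprint level of a gene reflects both how much of its mRNA is present and how densely ribosomes load it. FMRP, the product of Fmr1, is an RNA-binding protein that associates with polyribosomes in neurons. Its loss causes fragile X syndrome. Messages for secreted and membrane proteins are translated on ribosomes docked at the endoplasmic reticulum (ER), where chaperones fold the products, while messages for most other proteins are translated on free ribosomes in the cytosol. The question is how the loss of FMRP redistributes footprints among mRNAs.

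Levels are in TPM, a transcript abundance that divides footprints by gene length and scales each library to a common total, and values are listed in the order of the replicate numbers. A gene is said to have risen or fallen in KO when its adjusted p in the edgeR quasi-likelihood test over all genes was under 0.05, and each adjusted p comes from that test, as does the SE that follows ± after a log2 fold change. KO 1 to KO 3 and WT 1 to WT 4 are the libraries, and a result without a library is that of a fit that left out only it. Scaling centres the data on the typical gene, so a shift shared by all mRNAs cannot be seen. The libraries held 15.6 to 22.7 M estimated counts, with a median gene count of 329 to 482. The deposited levels have a floor near 1 TPM, so fold changes of genes near it are understated. In bulk tissue, fewer cells of a type and less RNA per cell cannot be told apart.

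Of the 14438 genes, 1177 rose (8.15%) and 1500 fell (10.4%), together 18.5%. Their absolute log2 fold changes had a median of 0.20, and 4 that rose and 15 that fell changed by at least 1.5-fold. TPM values of the groups did not overlap for 1098 of the 1177 genes that rose and 1422 of the 1500 that fell. Over all tested genes, these included, the share was 30.7%. The test used the same libraries, so this separation is no support for its calls. Without KO library 3 the number that rose was 754, and without WT library 4 it was 719. With every library left out in turn, 509 genes rose and 793 fell in all 7 fits.

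**Figure D1:**
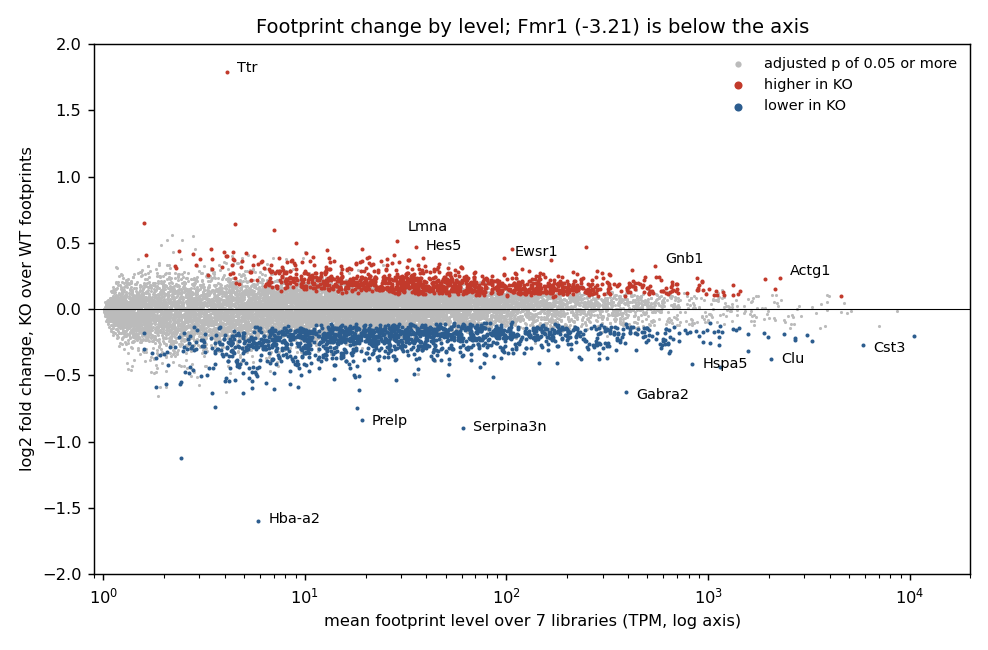
Log2 fold change of footprints, KO over WT, against the mean level over 7 libraries in TPM on a log axis. Each point is a gene, red where it rose, blue where it fell and grey where it did not pass the test. Coloured points lie on both sides of 0 at all but the lowest levels, and few lie beyond 0.5 in either direction.

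Fmr1 (chrX:68678536-68717963, GRCm38) had the largest decrease of the genes named by size. Its footprints were 4.81, 4.59 and 5.03 TPM in KO and 46.3, 44.7, 43.8 and 42.7 TPM in WT. The KO values lay far below every WT value, with a log2 fold change of -3.21 ± 0.06 (adjusted p = 9.12e-12). Subtracting 1 TPM from every value moved the log2 fold change to -3.52. Fxr2, a paralog whose protein binds FMRP, rose with 48.2 to 48.8 TPM against 38.1 to 42.9 TPM (log2 fold change 0.24 ± 0.04, adjusted p = 0.00318). Fxr1, the other paralog, overlapped between groups, with 59 to 65.8 TPM against 53 to 62.9 TPM and a log2 fold change of 0.14 ± 0.06 (adjusted p = 0.105). Setd2, a histone H3 lysine 36 methyltransferase, had a log2 fold change of 0.09 ± 0.05 (adjusted p = 0.262) and overlapping groups. Of 23 genes for the FMRP family and its protein partners, 6 rose and Fmr1 alone fell, against 8.15% and 10.4% of all tested genes. The number that rose was 4 to 7 when single libraries were left out.

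Among the genes that fell most after Fmr1 were several for secreted or membrane proteins. Serpina3n, a secreted protease inhibitor of reactive astrocytes, had 36.6, 39.8 and 46.7 TPM in KO and 77.7, 79.7, 72.4 and 74.6 TPM in WT, a log2 fold change of -0.90 ± 0.07 (adjusted p = 9.94e-05). Gabra2, which encodes a GABA-A receptor alpha subunit, had 287, 304 and 306 TPM in KO and 461, 455, 451 and 471 TPM in WT, a log2 fold change of -0.63 ± 0.04 (adjusted p = 1.41e-05). Groups that did not overlap were part of the rule that named genes by fold, so their separation is no support for these genes or for those that rose. Genes named below by TPM had passed the test, and genes named from lists had the smallest p there. Separate groups, or nearly equal libraries within a group, are therefore no support for them either. Secreted matrix proteins were represented by Prelp (-0.84), Dcn (-0.51) and Ogn (-0.51), proteoglycans of connective tissue, on the log2 scale. Klk8, a secreted neuronal protease, had a log2 fold change of -0.61, the chemokine Ccl12 -0.74, the complement component C4b -0.54 and Cbln4, a secreted synaptic organiser, -0.51. Car4, a membrane-anchored carbonic anhydrase, and Igsf9b, an adhesion protein of inhibitory synapses, had a log2 fold change of -0.54 and -0.51. Pon3, a lipoprotein-associated esterase, and Syna, an envelope-derived membrane fusion protein, had a log2 fold change of -0.52 and -0.50.

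Several other large decreases depended on single libraries or lay at low levels. Cox6b2, a mitochondrial respiratory subunit isoform, had 5.13 to 5.68 TPM in KO and 7.07 to 9.06 TPM in WT, and its adjusted p of 0.0479 rose above 0.05 without KO 1, KO 2, KO 3, WT 1, WT 2 or WT 4 (up to 0.151). The chemokine-like gene Cklf (-0.59) missed the threshold without KO 2, KO 3, WT 3 or WT 4. The endothelial surface protein Ly6a (-0.59) missed it without WT 3, the membrane protein of the hair cell transduction channel Lhfpl5 (-0.56) without KO 1, and the membrane protein Ctxn2 (-0.53) without KO 1, KO 2, WT 1 or WT 3. The alpha-globin gene Hba-a2 had 2.14 to 3.08 TPM in KO and 7.27 to 9.12 TPM in WT, and its reads cannot be separated from those of its near-identical copy.

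Among the genes that rose most were several for nuclear or cytosolic proteins. Lmna, which encodes the A-type lamins of the nuclear envelope, had 37.4, 31 and 36.2 TPM in KO and 24.3, 25.3, 24.6 and 22.9 TPM in WT, a log2 fold change of 0.52 ± 0.06 (adjusted p = 0.00058). KO library 2 was the lowest of the 3. Ewsr1, an RNA-binding protein of the FET family, had 119, 108 and 112 TPM in KO and 81.8, 85.7, 92.7 and 84.2 TPM in WT, a log2 fold change of 0.38 ± 0.04 (adjusted p = 0.00058). The Notch target Hes5, a repressor, had a log2 fold change of 0.47, and Zfp212, a zinc finger protein, 0.39. Arpc1b, an Arp2/3 subunit abundant in immune cells, Actn4, an actin crosslinker, and Spi1, the transcription factor PU.1 of microglia, had a log2 fold change of 0.45, 0.41 and 0.39. Crybb1, a crystallin expressed by immature microglia, had a log2 fold change of 0.43, and Tdrp, a nuclear protein of testis, 0.39. The enzymes Cbs, which makes cystathionine, and Npl, a sialic acid lyase, had a log2 fold change of 0.38 and 0.37. Rlbp1, a cytosolic retinoid carrier of glia, had a log2 fold change of 0.38.

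Secreted and membrane products were present among the largest increases as well. Tnfrsf12a, a membrane receptor of the tumour necrosis factor receptor family, had a log2 fold change of 0.40 but missed the threshold without KO 3. Cort, the neuropeptide cortistatin, had a log2 fold change of 0.39 and missed it without WT 4. The kinase gene Prkcd, abundant in thalamic neurons, had a log2 fold change of 0.46 ± 0.15 (adjusted p = 0.0476) and missed it without KO 1, KO 2, KO 3, WT 1 or WT 3. The ubiquitin-conjugating enzyme gene Ube2t (0.42) missed it without KO 1, KO 2, KO 3, WT 2, WT 3 or WT 4, and the mitochondrial protein gene Chchd2 (0.50) without KO 1. Values of Chchd2, the histone gene Hist1h2bf (0.60) and the ferritin light chain gene Ftl1 (0.45) are uncertain, because near-identical copies share their reads.

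**Figure D2:**
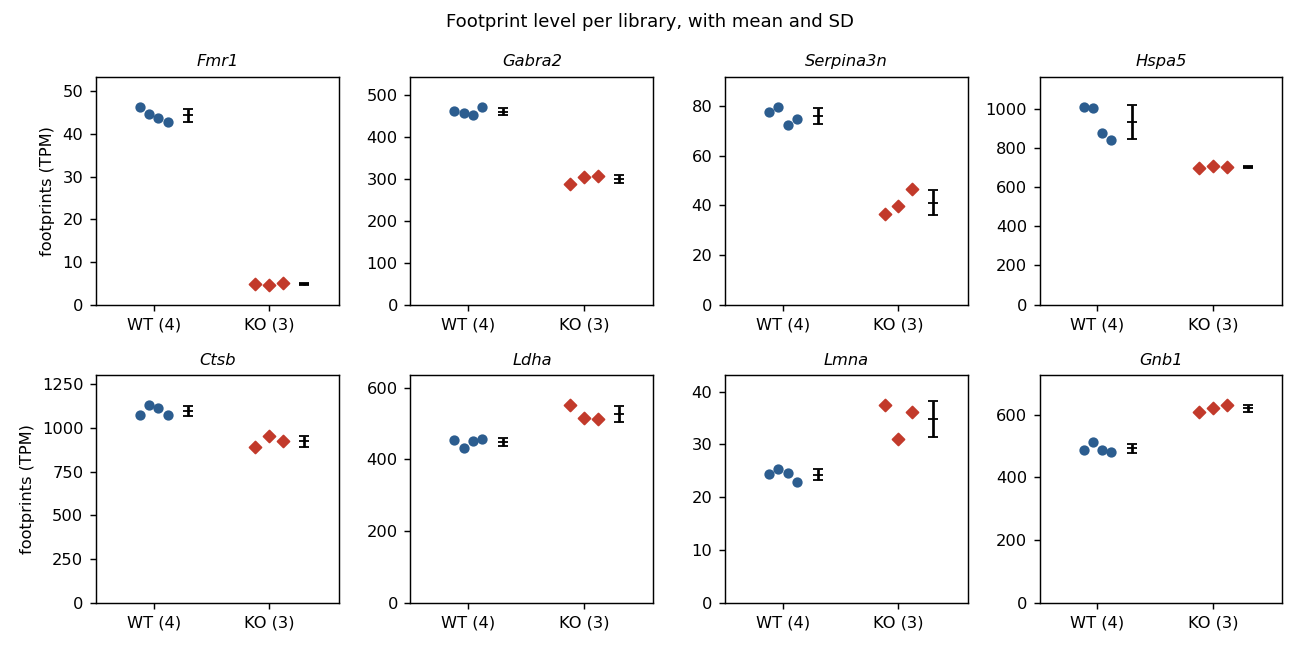
Footprint level in TPM of 8 genes in each WT library (blue circles) and each KO library (red diamonds), in replicate order from left to right, with the mean and SD of the group beside them. In all 8 genes the KO and WT libraries did not overlap. Fmr1, Gabra2, Serpina3n, Hspa5 and Ctsb were lower in KO, and Ldha, Lmna and Gnb1 were higher.

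The largest gains and losses in TPM, rather than in fold, fell on abundant messages. Among the genes that lost most were Cst3, the secreted cysteine protease inhibitor cystatin C, with 5131, 5427 and 5194 TPM in KO and 6199, 6183, 6539 and 6323 TPM in WT (log2 fold change -0.27 ± 0.04, adjusted p = 0.00126), and the secreted chaperone clusterin, Clu, with 1648, 1817 and 1835 TPM and 2288, 2285, 2282 and 2275 TPM (log2 fold change -0.38 ± 0.05, adjusted p = 0.000706). No KO library reached the lowest WT library in either gene. Cpe, the prohormone-processing carboxypeptidase, had a log2 fold change of -0.24 ± 0.05, and Psap, the precursor of the lysosomal saposins, -0.23 ± 0.05. Ptgds, the secreted prostaglandin D synthase, had a log2 fold change of -0.43 ± 0.05, Sparcl1, a matrix protein of astrocytes, -0.22 ± 0.05, Atp1b1, the beta subunit of the sodium pump, -0.20 ± 0.05, and Nnat, an ER membrane proteolipid, -0.32 ± 0.05. Apoe, the secreted lipid carrier, had a log2 fold change of -0.19 ± 0.05 and missed the threshold without WT 4. Tmsb4x, the cytosolic actin-sequestering thymosin, lost more TPM than any of these but missed the threshold without KO 1, KO 2, WT 1, WT 2 or WT 4, and its pseudogenes may share reads.

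The largest gains in TPM included genes for cytosolic, cytoskeletal and mitochondrial proteins. Ckb, the brain creatine kinase, had 2262, 2078 and 1953 TPM in KO and 1674, 1739.8, 1911 and 1793 TPM in WT (log2 fold change 0.23 ± 0.05, adjusted p = 0.00904), with WT library 3 nearest to the KO libraries. Gnb1, a G protein beta subunit, had 609, 620.3 and 630.3 TPM in KO and 486, 513, 488 and 481 TPM in WT (log2 fold change 0.32 ± 0.04, adjusted p = 0.00058), with every KO library above every WT library. Glul, the glutamine synthetase of astrocytes, had a log2 fold change of 0.15 ± 0.03, Ppp3ca, the calcineurin catalytic subunit, 0.18 ± 0.04, Ddx5, an RNA helicase, 0.21 ± 0.05, and Atp5a1, the alpha subunit of ATP synthase, 0.20 ± 0.04. The cytoskeletal genes Actg1 (gamma actin) and Tubb4a had a log2 fold change of 0.24 ± 0.04 and 0.24 ± 0.05, and share reads with close paralogs. Mdh1, the cytosolic malate dehydrogenase, had a log2 fold change of 0.14 ± 0.04 and missed the threshold without WT 4. Ppia, cyclophilin A, which has many pseudogenes, had a log2 fold change of 0.10 ± 0.03 and missed it without each library in turn.

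Gene lists written from general knowledge were described by how many members rose or fell and by the median gene in each library, as a log2 deviation from the WT mean. Of 62 lists, the median lay below every WT library in all 3 KO libraries for 21 and above every WT library for 15, and the groups overlapped for 26. Lists were joined into 5 broad classes after their values had been seen, so the classes describe the data and test nothing. In the class of ER, lysosome, neuropeptide and matrix lists, 106 of 168 genes fell (63.1%) and 4 rose (none without WT 4, and 2 without any other library). Its median gene deviated by -0.24, -0.14 and -0.15 in KO libraries 1 to 3. The class held 3.33% ± 0.123 of TPM (mean ± SD, n = 3) in KO footprints and 3.78% ± 0.0799 (n = 4) in WT. In the class of neuronal receptors, channels, adhesion and guidance molecules, 172 of 356 genes fell (48.3%) and 4 rose, with a TPM share of 2.01% ± 0.0356 against 2.24% ± 0.0391.

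In 3 classes of intracellular proteins more genes rose than fell. These classes leave out the respiratory chain and both kinds of ribosomal protein, in which 11 of 82, 4 of 82 (cytosolic) and 7 of 77 (mitochondrial) genes rose. They also leave out other intracellular lists. Among these, 4 of 25 genes for spectrins, ankyrins and giant scaffolds rose and 6 fell. For lamins and the nuclear envelope 2 of 17 rose and 2 fell, and for large ubiquitin ligases 2 of 22 rose and 2 fell. Of all tested genes 8.15% rose and 10.4% fell, and the lamin and ligase lists stood near these shares. These counts changed when single libraries were left out. Then 2 to 6 scaffold genes, 0 to 2 lamin and envelope genes and 0 to 4 ligase genes fell. The class of cytosolic chaperones, proteasome, glycolysis and tricarboxylic acid cycle, motors, tubulins and actin regulators had 245 genes. Of these 73 rose (29.8%) and 5 fell, with a TPM share of 8.6% ± 0.137 in KO against 8.23% ± 0.0842 in WT. Its lists were uneven. Only 4 of 41 chaperone genes (2 to 6 with single libraries left out) and 8 of 56 motor genes (4 to 7) rose. Those shares lay nearer to the 8.15% of all tested genes, and the list medians of KO and WT libraries overlapped for both. In the class of RNA processing and translation factors, 70 of 241 rose (29%) and 4 fell (2 without KO 2 or WT 4), with shares of 3.29% ± 0.0695 and 3.09% ± 0.0468. With KO 1, KO 3, WT 2 or WT 4 left out, the genes that rose numbered 56, 53, 48 and 44 in the former class and 44, 42, 45 and 40 in the latter. With the replicate number as a block in the fit, 32 genes rose in each of them. Among chromatin regulators 24 of 177 rose (13.6%) and 9 fell, nearer to the shares of all tested genes. Without WT 2, WT 4 or KO 1, 12, 13 and 14 of them rose, 11 fell without KO library 1 and 3 without KO library 3.

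**Figure D3:**
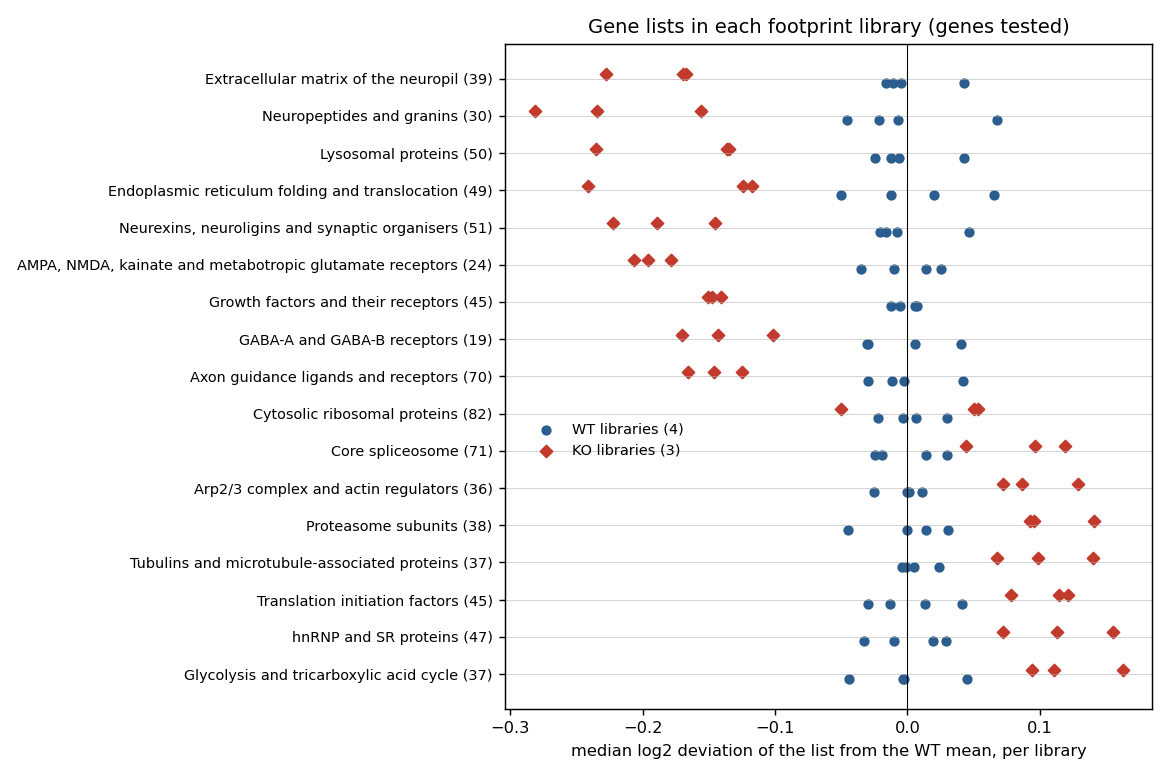
Median log2 deviation from the WT mean of the genes of 17 lists in each library, with WT libraries as blue circles, KO libraries as red diamonds and the number of genes tested in brackets. All KO diamonds lie left of the WT circles for the lists of receptors and of secreted, lysosomal, ER and adhesion proteins. They lie right of the WT circles for the cytosolic and RNA processing lists shown, and among the 17 lists KO and WT overlap only for ribosomal proteins. The 17 were picked from 62 lists, of which 26 overlapped. Lists of cytosolic chaperones, motors and the respiratory chain, not shown, were among those that overlapped.

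The ER list holds the chaperones, translocation channel, signal peptidase and oligosaccharyltransferase, together with the cytosolic signal recognition particle, which delivers nascent chains to the ER. Hspa5, the chaperone BiP, had 700.1, 712 and 703 TPM in KO and 1012, 1005, 879.5 and 840.1 TPM in WT, a log2 fold change of -0.41 ± 0.06 (adjusted p = 0.00203). The KO libraries were nearly equal, while WT libraries 1 and 2 lay above WT libraries 3 and 4. Pdia6, a disulfide isomerase, had 188, 205 and 199 TPM in KO and 271, 272, 235 and 232 TPM in WT, a log2 fold change of -0.36 ± 0.07 (adjusted p = 0.0038), with the same division of the WT libraries. RNA of the same lysates measured 202 ± 5.61 TPM in KO and 226 ± 14.2 TPM in WT (mean ± SD, n = 3 and 4) for Hspa5.

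Other ER genes fell by smaller amounts. Hyou1, a chaperone that assists BiP, had a log2 fold change of -0.33 ± 0.05 (adjusted p = 0.00167), Uggt1, the glycoprotein folding sensor, -0.26 ± 0.04 (adjusted p = 0.00119), and Dnajc10, a reductase of the ER lumen, -0.22 ± 0.04 (adjusted p = 0.0034). Further chaperones, singled out after their values were seen because of a promoter motif, were Hsp90b1 (the ER paralog of Hsp90, log2 fold change -0.31 ± 0.07, adjusted p = 0.00858), Calr (calreticulin, log2 fold change -0.25 ± 0.06, adjusted p = 0.00991) and Canx (calnexin, log2 fold change -0.22 ± 0.05, adjusted p = 0.0149). Dnajc3, a BiP co-chaperone singled out in the same way, had a log2 fold change of -0.15 ± 0.04 (adjusted p = 0.0348) and missed the threshold without KO 1, KO 2, KO 3, WT 1 or WT 2.

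Of the 49 ER genes tested, 31 fell and 2 rose, with a median log2 fold change of -0.16. The numbers that fell were 15 without KO library 1, 19 without WT library 1 and 20 without WT library 2. KO library 1 deviated most, with list medians of -0.24, -0.12 and -0.12 in KO libraries 1 to 3 and 0.02, 0.07, -0.05 and -0.01 in WT libraries 1 to 4. The matching RNA medians were -0.04, -0.01 and -0.08 in KO and 0.01, 0.02, 0.03 and -0.05 in WT. Both genes that rose belong to the signal recognition particle. Srp68 had 38.8 to 42.9 TPM in KO and 33.4 to 39.2 TPM in WT, which overlap, and its adjusted p of 0.0322 rose above 0.05 without KO 1, KO 2, WT 2 or WT 4. Srp54b, which has close paralogs, had an adjusted p of 0.0436 and missed the threshold without each library in turn. Split after the values were seen, the 6 genes of the particle had a median log2 fold change of 0.08, while all 43 other members were below 0, between -0.41 and -0.01, with a median of -0.17.

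Several ER chaperone genes are known to be induced through the ER stress response element, which reads CCAAT, then 9 bases of any kind, then CCACG. Its CCAAT end is also the motif of NF-Y. It was searched on both strands of the 250 bases before each gene's start. Of 10884 tested genes with a promoter in the RefSeq table of GRCm38.p6, 16 held it (0.147%). Of those 16, 8 fell and none rose. The ER list had a promoter for 38 of its 49 genes, and 6 of the 38 held the element (15.8%), all of which fell. Of the 32 without it 20 fell and 1 rose. These sites are shown because they lie before the ER genes that fell, with the element in capitals, read 5′ to 3′ on the gene's strand.
Hspa5 (chr2:34772013-34772055, plus strand): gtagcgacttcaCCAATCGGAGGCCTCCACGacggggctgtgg
Pdia6 (chr12:17266479-17266521, plus strand): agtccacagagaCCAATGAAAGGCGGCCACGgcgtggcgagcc
Hsp90b1 (chr10:86705626-86705668, minus strand): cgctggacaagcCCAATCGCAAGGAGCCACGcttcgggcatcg
Canx (chr11:50325788-50325830, minus strand): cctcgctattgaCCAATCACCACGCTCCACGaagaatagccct
Dnajc3 (chr14:118937815-118937857, plus strand): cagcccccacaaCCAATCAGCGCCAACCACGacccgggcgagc
Calr (chr8:84847063-84847105, minus strand), element on the opposite strand: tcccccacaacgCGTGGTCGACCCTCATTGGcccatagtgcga
Creld2 (chr15:88819508-88819550, plus strand), element on the opposite strand: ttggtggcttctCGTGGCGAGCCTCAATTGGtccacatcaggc
The motif match is a description of these letters and not a measured site. Hsp90b1 held another match, on the opposite strand. The other holders that fell were Creld2, an ER-resident protein outside the list (log2 fold change -0.39 ± 0.07, adjusted p = 0.00411), and Adcy3, an adenylyl cyclase (log2 fold change -0.19 ± 0.04, adjusted p = 0.00513), both named after their values were seen. The call of Dnajc3 depended on single libraries, being lost without KO 1, KO 2, KO 3, WT 1 or WT 2. The palindrome of GTCAC followed by GTGAC, the core of the element bound by TFEB at lysosomal genes, was in 58 promoters (0.533%), of which 7 rose and 6 fell, and in 1 of 38 lysosomal promoters.

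Most lysosomal genes were lower in KO. Of 50 tested, 32 fell and none rose, all 50 log2 fold changes were below 0, and the median was -0.17. Ctsb, the protease cathepsin B, had 890.02, 954 and 924 TPM in KO and 1071, 1129, 1114 and 1071 TPM in WT, a log2 fold change of -0.26 ± 0.04 (adjusted p = 0.00224). The groups were separate by more than the range within either of them. Npc2, the lumenal cholesterol carrier, had a log2 fold change of -0.23 ± 0.04 and Lipa, the acid lipase, -0.29 ± 0.06, also without overlap. The list's medians were -0.24, -0.14 and -0.14 in KO libraries 1 to 3 and -0.01, 0.04, -0.01 and -0.02 in WT libraries 1 to 4, and in RNA -0.14, -0.11 and -0.07 in KO and -0.03, 0.03, 0.04 and -0.05 in WT. Leaving out any library left 25 to 29 genes that fell.

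Genes of the V-ATPase, the proton pump that acidifies lysosomes and synaptic vesicles, changed in shares close to those of all tested genes (8.15% rose and 10.4% fell). Of the 20 genes 2 rose and 2 fell. Both that fell, Atp6ap2 (log2 fold change -0.21 ± 0.04, adjusted p = 0.00367) and Atp6ap1 (log2 fold change -0.15 ± 0.04, adjusted p = 0.0189), encode accessory subunits with a lumenal domain. Atp6ap2 had 585, 620.4 and 591 TPM in KO and 676, 694, 682 and 703 TPM in WT, without overlap. The 2 that rose, Atp6v0d1 (log2 fold change 0.14 ± 0.03, adjusted p = 0.0128) and Atp6v1b2 (log2 fold change 0.14 ± 0.04, adjusted p = 0.0318), encode subunits on the cytosolic side. The other 16 genes did not pass, so these calls do not show a division of the pump by side. Atp6ap1 missed the threshold without KO 1 or KO 3, and Atp6v1b2 without KO 1, KO 3, WT 2 or WT 4.

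Among secreted proteins, 18 of 30 neuropeptide and granin genes fell, with a list median of -0.23, and Cort and Npy rose. Grp, the gastrin-releasing peptide precursor, had 59, 65.3 and 61.8 TPM in KO and 87.3, 83.5, 81.7 and 81.3 TPM in WT (log2 fold change -0.44 ± 0.05, adjusted p = 0.00058). Scg5, the granin 7B2 that assists a prohormone convertase, had 644, 674 and 638 TPM in KO and 756, 768, 777 and 762 TPM in WT (log2 fold change -0.24 ± 0.03, adjusted p = 0.0014). Neither gene had a KO value as high as its lowest WT value. Cort missed the threshold without WT 4, and 1 of the 2 genes that rose passed the test without KO 2, KO 3, WT 1 or WT 3, and neither without WT library 4.

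Matrix genes of the neuropil fell in 25 of 39 cases, with a median of -0.20 and none that rose. Lamb1, a laminin chain, had 12.6, 12.3 and 12.5 TPM in KO and 15.5, 15.8, 15.2 and 15.5 TPM in WT (log2 fold change -0.32 ± 0.04, adjusted p = 0.000512), and within each group the libraries were nearly equal. Hapln1, which links hyaluronan to proteoglycans in perineuronal nets, had a log2 fold change of -0.29 ± 0.04 (adjusted p = 0.000933). Of 45 growth factors and receptors 19 fell and none rose, with a median of -0.15. Igf2, insulin-like growth factor 2, had 121, 122 and 124 TPM in KO and 167, 154, 168 and 155 TPM in WT (log2 fold change -0.41 ± 0.04, adjusted p = 0.000346). Its KO libraries were within a few TPM of each other and below every WT library. The receptor tyrosine kinases Pdgfra, a marker of oligodendrocyte precursors, and Ntrk3, the neurotrophin-3 receptor, had a log2 fold change of -0.35 ± 0.03 and -0.29 ± 0.04.

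Most synaptic adhesion genes fell. Of 51 neurexins, neuroligins, contactins and other organisers 39 fell, none rose, every log2 fold change was below 0 and the median was -0.19. The list's RNA medians were -0.06, -0.16 and -0.13 in KO and 0.04, -0.03, -0.01 and -0.005 in WT. Flrt3, a postsynaptic latrophilin ligand, had 37.5, 38.5 and 38 TPM in KO and 48.1, 45.1, 47.7 and 48.6 TPM in WT (log2 fold change -0.33 ± 0.04, adjusted p = 0.000567). Slitrk3, an organiser of inhibitory synapses, had 60.5, 62.4 and 61 TPM in KO and 72.4, 73, 72.5 and 76.1 TPM in WT (log2 fold change -0.27 ± 0.04, adjusted p = 0.000933), with WT library 4 above the other WT libraries. Of 70 axon guidance genes 33 fell and none rose, with a median of -0.14. Slit2, a secreted repellent, had a log2 fold change of -0.41 ± 0.04 (adjusted p = 0.000178), and Sema3e, a secreted semaphorin, -0.34 ± 0.04 (adjusted p = 0.000706), both without overlap of the groups.

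Most glutamate and GABA receptor genes fell. Of 24 glutamate receptor genes 15 fell and the other 9 were also below 0, with a median of -0.20. Gria1, an AMPA receptor subunit abundant in CA1, had 332, 329.7 and 336 TPM in KO and 392, 393, 391 and 397 TPM in WT (log2 fold change -0.25 ± 0.03, adjusted p = 0.000916), with a spread within groups of under 10 TPM. Its RNA was 426 ± 4.72 TPM in KO and 437 ± 14.7 TPM in WT. RNA medians of the glutamate receptor list were -0.07, -0.13 and -0.09 in KO and 0.03, -0.01, -0.03 and 0.02 in WT. Those of the GABA receptor list overlapped, at 0.01, -0.09 and -0.10 in KO and -0.05, 0.02, 0.005 and 0.01 in WT. Grin3a, an NMDA receptor subunit, had a log2 fold change of -0.29 ± 0.04 (adjusted p = 0.00128), and Grik4, a kainate receptor subunit of CA3, -0.38 ± 0.04 (adjusted p = 0.000346). Of 19 GABA receptor genes 12 fell, led by Gabra2, and 1 rose, Gphn, which encodes the cytosolic scaffold gephyrin. Of 75 potassium and HCN channel genes 15 fell and 2 rose, with a median of -0.08. The number that fell was 9 without KO 1, 7 without KO 3 and 8 without WT 2 or WT 4, and 1 rose without KO 3, WT 1, WT 3 or WT 4. Kcnq5, a voltage-gated channel subunit, had 15.6 to 16.4 TPM in KO and 17.7 to 19.6 TPM in WT (log2 fold change -0.25 ± 0.05, adjusted p = 0.00462). Kcnip4, a cytosolic auxiliary subunit of potassium channels, was among the 2 that rose, with 212 to 220.2 TPM in KO against 189.7 to 198 TPM in WT (log2 fold change 0.15 ± 0.03, adjusted p = 0.00901).

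Synaptic vesicle and active zone genes also moved in both directions. Of 51 genes 13 rose and 8 fell, and the list median was 0.01. The numbers that rose were 7 without KO library 1 and 8 without WT 2 or WT 4, and 5 fell without KO 3, WT 1 or WT 4. Synpr, a vesicle membrane protein of mossy fibres, had 279.7, 284 and 282 TPM in KO and 338, 342, 342 and 338 TPM in WT (log2 fold change -0.28 ± 0.03, adjusted p = 0.000543). Syt2, a membrane calcium sensor of fast release, had a log2 fold change of -0.36 ± 0.06 (adjusted p = 0.00293), and the cytosolic complexin Cplx1 had a log2 fold change of -0.23 ± 0.04 (adjusted p = 0.00235). Stx1a, a plasma membrane SNARE, had 181, 175 and 168 TPM in KO and 154, 154, 150.05 and 149 TPM in WT (log2 fold change 0.20 ± 0.03, adjusted p = 0.00359), and Ppfia3, an active zone scaffold, 0.20 ± 0.04 (adjusted p = 0.0034). All 5 genes had groups that did not overlap.

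Postsynaptic scaffolds were also divided. Of 31 genes 6 rose and 5 fell, against 8.15% and 10.4% of all tested genes. Ppp1r9a, the actin-binding neurabin, had 52.8, 52.1 and 49.7 TPM in KO and 42.2, 43.8, 41.4 and 42 TPM in WT (log2 fold change 0.28 ± 0.04, adjusted p = 0.000941), and Shank1, a master scaffold of excitatory synapses, 17.9 to 20.4 TPM in KO and 20.8 to 23.5 TPM in WT (log2 fold change -0.24 ± 0.05, adjusted p = 0.0103). Every KO library was above every WT library for Ppp1r9a and below for Shank1. The counts rested on single libraries, in that 2 genes rose without KO 1 or WT 4 and 3 without KO 3 or WT 2, and 3 fell without KO 3 or WT 4.

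In energy metabolism, genes of glycolysis and the tricarboxylic acid cycle were mostly higher in KO. Of these 37 genes 20 rose and none fell, with a median of 0.12, and 13 rose without KO library 1, 10 without WT library 2 and 9 without WT library 4. Ldha, lactate dehydrogenase A, had 551, 514 and 513 TPM in KO and 453, 431, 452 and 457 TPM in WT (log2 fold change 0.22 ± 0.03, adjusted p = 0.00188). Dlst, a subunit of the oxoglutarate dehydrogenase complex, had 127, 123 and 122 TPM in KO and 103, 100, 108 and 100.3 TPM in WT (log2 fold change 0.26 ± 0.03, adjusted p = 0.00092). In both genes every KO library was above every WT library. Mdh2, the mitochondrial malate dehydrogenase, had a log2 fold change of 0.22 ± 0.04, and Gapdh, which shares reads with pseudogenes, 0.17 ± 0.03. The list medians were 0.16, 0.11 and 0.09 in KO libraries 1 to 3, and in RNA 0.17, 0.15 and 0.18. Of 82 nuclear-encoded respiratory chain genes 11 rose and 2 fell, with a median of 0.02, so that this list stood nearer to the 8.15% of all tested genes that rose. KO library 1 differed from the other KO libraries, with list medians of -0.07, 0.07 and 0.07 in KO libraries 1 to 3. Without KO library 1, 17 of them rose, and without KO library 3 or WT library 2, 7. Neither of the 2 that fell passed without KO 1, KO 3, WT 2 or WT 4, and 1 passed without any other library.

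Smaller shares of proteasome and cytoskeletal genes rose. Of 38 proteasome subunit genes 15 rose and none fell, and 8 rose without KO 3, WT 2 or WT 4. Psmb1, a core subunit, had 454, 449 and 462 TPM in KO and 403, 398, 405 and 402 TPM in WT (log2 fold change 0.17 ± 0.03, adjusted p = 0.00404). Of 36 genes of the Arp2/3 complex and its actin regulators 12 rose, among them Dbn1, the spine protein drebrin (log2 fold change 0.27 ± 0.04, adjusted p = 0.00128), and Arpc1a, an Arp2/3 subunit (log2 fold change 0.23 ± 0.03, adjusted p = 0.00147), and Tmsb4x fell, a call lost without KO 1, KO 2, WT 1, WT 2 or WT 4. Dbn1 had 126, 125 and 119 TPM in KO and 102, 106, 101 and 97.4 TPM in WT, without overlap. The list of tubulins and proteins that bind microtubules had 14 members that rose and 3 that fell, of 37. The 3 that fell were Map1a, Map1b and Map2, dendritic and axonal proteins with long messages, and Map2 had 559.9, 552 and 539.97 TPM in KO and 655, 700.1, 604 and 671 TPM in WT (log2 fold change -0.26 ± 0.05, adjusted p = 0.00463).

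Parts of the RNA-binding and translation lists rose. The list of hnRNP and SR protein genes had 47 members, of which 22 rose and 1 fell (Srsf11, a call lost when any library but WT library 3 was left out). The number that rose was 14 without WT 2 or WT 4. Pcbp2, a poly(C)-binding protein, had 350.4, 364 and 367 TPM in KO and 304, 301, 302 and 292 TPM in WT (log2 fold change 0.26 ± 0.04, adjusted p = 0.00126), without overlap, while its RNA was 326 ± 1.43 TPM in KO and 369.98 ± 10.8 TPM in WT. RNA medians of the whole list went the other way, at 0.12, 0.08 and 0.16 in KO and 0.03, 0.02, -0.04 and 0.01 in WT. Hnrnpl, a splicing regulator, had a log2 fold change of 0.22 ± 0.04 (adjusted p = 0.00353). Of 71 core spliceosome genes 13 rose, among them Prpf6, a protein of the tri-snRNP (log2 fold change 0.23 ± 0.04, adjusted p = 0.00362), and 2 fell (1 without KO library 1). Of 45 initiation factor genes 17 rose and none fell, but 8 rose without KO library 3 and 9 without KO 1, WT 2 or WT 4. Eif2b3, a subunit of the exchange factor that recycles eIF2, had 19, 19.1 and 19 TPM in KO and 14.9, 15.7, 16.6 and 16.9 TPM in WT (log2 fold change 0.24 ± 0.05, adjusted p = 0.00655), and Paip1, a poly(A)-binding protein partner, 0.22 ± 0.04 (adjusted p = 0.0045).

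Few ribosomal protein genes passed the test. Of 82 genes 4 rose and 2 fell, against 8.15% and 10.4% of all tested genes. The median was 0.02, and the KO libraries were divided, with medians of -0.05, 0.05 and 0.05. Without KO library 1 the number that rose was 10, and without KO 3 or WT 4 it was 0. Of the 2 that fell, neither passed without KO 1, KO 2, WT 1 or WT 4, and 1 passed without WT 2 or WT 3.

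Among iron and cholesterol genes, single members rose or fell, and the counts rest on few genes. Tfrc, the transferrin receptor, had 78.8, 77.4 and 86 TPM in KO and 98.8, 105, 103 and 108 TPM in WT (log2 fold change -0.37 ± 0.05, adjusted p = 0.000853), all KO libraries below all WT libraries. The secreted iron proteins Trf (transferrin) and Cp (ceruloplasmin) had a log2 fold change of -0.26 ± 0.05 (adjusted p = 0.00651) and -0.39 ± 0.08 (adjusted p = 0.00496), and the cytosolic ferritin light chain Ftl1 rose (log2 fold change 0.45 ± 0.08, adjusted p = 0.00264), with reads that near-identical copies share. Of 11 iron genes 3 fell and 1 rose (2 without KO library 2), against 10.4% and 8.15% of all tested genes. Hmgcs1, an early enzyme of cholesterol synthesis, had 494, 449 and 475 TPM in KO and 387, 369, 382 and 395 TPM in WT (log2 fold change 0.29 ± 0.04, adjusted p = 0.000828), and Pmvk, the phosphomevalonate kinase, had a log2 fold change of 0.21 ± 0.04 (adjusted p = 0.00478). Scap, the ER membrane escort of SREBP, fell (log2 fold change -0.25 ± 0.04, adjusted p = 0.00147). Idi1, the isopentenyl diphosphate isomerase (log2 fold change 0.18 ± 0.05, adjusted p = 0.0187) missed the threshold without KO 3, and Srebf1, the membrane-tethered transcription factor itself (log2 fold change -0.18 ± 0.05, adjusted p = 0.0206), without KO 3, WT 3 or WT 4. Of 26 cholesterol genes 4 rose (2 without KO library 3) and 3 fell (1 without KO 3, WT 3 or WT 4), and the share that fell was close to the 10.4% of all tested genes.

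Markers of other cell types moved with these groups. Summed levels of 24 microglial markers were 1012 to 1081 TPM in KO and 1205 to 1230.2 TPM in WT, with 17 lower, among them Csf1r, the colony-stimulating factor receptor (log2 fold change -0.18 ± 0.03, adjusted p = 0.0034), Selplg, a surface mucin (log2 fold change -0.35 ± 0.04, adjusted p = 0.000618), and Olfml3, a secreted protein (log2 fold change -0.39 ± 0.05, adjusted p = 0.000635). Spi1 and Crybb1, which lie outside that list, rose as described above. Of 21 meningeal fibroblast markers 16 fell, among them Serping1, the secreted C1 inhibitor (log2 fold change -0.39 ± 0.05, adjusted p = 0.00108), with summed levels of 379 to 385 TPM against 460.4 to 523 TPM. The list shares secreted matrix genes with others described here. Their part in the lower levels of lysosomal and matrix genes was not tested.

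Astrocyte markers were divided, with 5 of 25 higher and 9 lower and summed levels of 14055 to 14873 TPM in KO against 15179 to 15768 TPM in WT. The cytosolic enzymes Aldh1l1, of folate metabolism, and Cbs had a log2 fold change of 0.23 ± 0.04 (adjusted p = 0.00392) and 0.38 ± 0.04 (adjusted p = 0.000351). Cbs had 29, 29.1 and 30.1 TPM in KO and 21.9, 22, 22.9 and 23 TPM in WT, and the groups were separate. The gap junction protein Gja1 had 279.8, 292 and 291 TPM in KO and 337, 339, 348 and 366 TPM in WT (log2 fold change -0.28 ± 0.04, adjusted p = 0.00132), separate in the other direction. The secreted protein Mfge8 had a log2 fold change of -0.33 ± 0.05 (adjusted p = 0.00127).

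Regional markers also differed. Wfs1, an ER membrane protein that marks CA1, had 66.3, 69.8 and 59.7 TPM in KO and 88.3, 80.3, 87.8 and 87.9 TPM in WT (log2 fold change -0.41 ± 0.05, adjusted p = 0.000706). Summed levels of the 13 CA1 markers were 1065 to 1154 TPM in KO and 1191 to 1216 TPM in WT. Of these 6 fell and 2 rose (none without WT 1, WT 3 or WT 4, and 1 without any other library). The 17 markers of CA3 and CA2 summed to 2935 to 3055 TPM and 3137 to 3345 TPM, with 5 that fell (3 without KO 1) and none that rose. The 18 dentate markers summed to 1058 to 1086 TPM and 1085 to 1159 TPM, with 6 that fell and 1 that rose (2 without KO 2 and none without KO 3). No marker is listed at 0, since the floor keeps every value near or above 1 TPM. Grik4, a marker of CA3, had 10.5 to 11.1 TPM in KO and 13.8 to 14.5 TPM in WT, well above the floor in slices described as enriched for CA1. Of the 16 thalamic markers 6 rose, with summed levels of 365 to 366 TPM against 319 to 358 TPM. Their WT medians were divided, at -0.16, 0.19, -0.16 and 0.12 in WT libraries 1 to 4, and 2 rose without KO 1, WT 1 or WT 3 and 3 without KO library 2. Ttr, the choroid plexus transthyretin, was 4.58, 4.33 and 11.9 TPM in KO and 2.15, 2.39, 1.65 and 1.71 TPM in WT, with KO library 3 above the rest, and the globin Hbb-bs 1.11 to 1.64 TPM in KO and 2.54 to 3.76 TPM in WT, near the floor. The 11 choroid plexus and ependymal markers summed to 228 to 245 TPM in KO and 258 to 272 TPM in WT. The part of tissue composition in the differences above was not tested.

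Footprint changes also varied with message length and level. Genes were divided into quintiles by effective length, inferred from the ratio of count to TPM. In the longest quintile 17.8% fell and 4.71% rose, in the shortest 6.74% fell and 5.66% rose, and in the middle quintile 9.71% fell and 10.7% rose. The longest quintile had medians of -0.02, -0.04 and -0.05 in KO libraries 1 to 3, and the shortest -0.04, 0.01 and 0.03. KO library 1 was lower at both ends of the length range, and KO libraries 2 and 3 declined from short to long genes. Removing a length trend from each library left 1424 genes higher and 1352 lower. In the quintile of lowest level 0.277% of genes rose and 1.49% fell, and in that of highest level 16.2% rose and 15.2% fell.

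**Figure D4:**
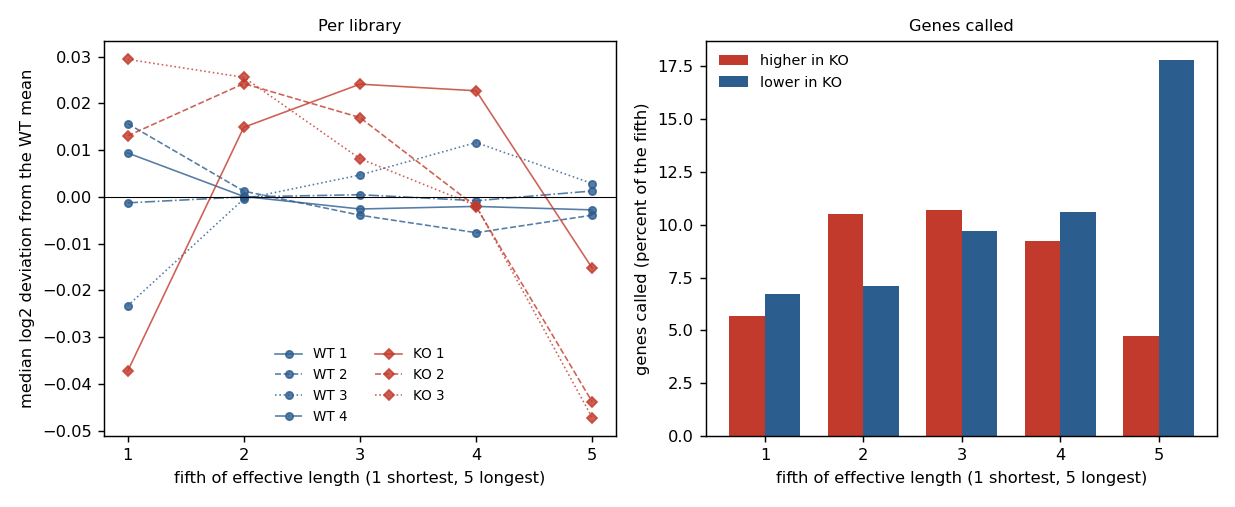
Left, median log2 deviation from the WT mean in each quintile of effective length, for each WT library (blue circles) and KO library (red diamonds). Right, percent of genes in each quintile that rose (red bars) or fell (blue bars) in KO, with the largest blue bar, 17.8%, at the longest quintile.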

How the data were processed

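The deposited tables hold 1 value per gene and library for 14459 genes, as estimated counts and as TPM, both made by the authors. Per the submitters' processing notes, the tools included cutadapt 1.7.1, Trimmomatic 0.32, Bowtie2 2.1.0, TopHat2 2.0.9, SAMtools, bedtools and RSEM 1.2.11, with the mouse build mm10. The authors' estimated counts are not whole and were rounded to whole numbers before testing. TPM totals of the deposited columns were 1013292 to 1014087, and 998833 to 999628 after 1 TPM per gene was subtracted. The source of that floor is not given in the sources used here.

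Footprint counts of 3 KO and 4 WT libraries were tested with edgeR 4.0.16 in R 4.3.3 (filterByExpr with a minimum count of 10, TMM scaling, robust quasi-likelihood F-test), with Benjamini-Hochberg adjustment over all 14438 genes tested, and the test was first tried on simulated data. The simulated counts varied more than counting noise, unlike the deposited values, so that trial cannot give the error rate in these data. Variation within groups along replicates 1 and 2 against 3 and 4 was 3.74% of the total, against 17.6% to 33.4% for other directions, and the ratio of variance to mean for genes of 20 to 50 counts was 0.163 in KO and 0.167 in WT. Deposited values thus vary less than counting noise would give, no counting intervals were made, and p-values may be too small. Deviations of libraries with the same number correlated at -0.11, -0.0015 and -0.44 across genes, and the numbers were not treated as pairing. Since variation along the replicate sets is low in these values, pairing is not excluded.

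Members, gene lists and tests were chosen with earlier results of these data known. Named genes are Fmr1, Fxr1, Fxr2 and Setd2, the 20 largest increases and decreases in fold with a mean of at least 5 TPM and groups that did not overlap, the 10 largest gains and losses in TPM, and up to 5 members of each list with the smallest p. Srp68, Srp54b, Gphn, Npy, Srsf11, Map1a and Map1b were named after their values were seen, as were the genes for which the text says so. 1 of the genes chosen by size is not reported here. RNA values come from the same lysates and are given as levels and as list medians, with no test. Gene symbols matched RefSeq tables of GRCm38.p6 for 13729 genes, and 700 more matched by synonym. Alternatives were DESeq2 1.42.0, limma 3.58.1 on log2(TPM + 1), voom, other scalings and filters, a replicate block, replicate sets as a covariate, removal of a length trend, each library left out, and, added after the data were seen, 1 TPM subtracted. A test by protein features (signal peptides, membrane spans) was not run, because protein sequences were not used here.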

Additional observations from a re-analysis of the deposited data

Results flagged for a closer look

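Among 4 WT libraries, a library was taken to stand apart when its gap to the nearest other library exceeded Dixon's 95% critical value as a share of the whole range. Chance alone marks about 1 in 20 such groups. Of 171 genes and lists checked, 4 were marked. Actg1 measured 2250 TPM in WT library 3 against 2050 to 2080 TPM in the other WT libraries. Slitrk3 measured 76.1 TPM in WT library 4 against 72.4 to 73 TPM, and Gapdh 606 TPM in WT library 2 against 620 to 623 TPM. Wfs1 measured 80.3 TPM in WT library 2 against 87.8 to 88.3 TPM. All 4 genes passed the test in each fit that left out 1 library.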

How the results depend on the processing

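The direction of every named gene held under every alternative tried, and the 5 class shares, computed only in TPM and in estimated counts, kept their side of 0 in both. Replicate numbers were not treated as pairing, though the deposited values cannot settle whether they pair the libraries. With the replicate number as a block, 429 genes rose and 875 fell, of which 424 and 859 were among the 1177 and 1500 above. In that fit 81 genes of the secretory class fell instead of 106, and 122 of the neuronal membrane class instead of 172. The genes that rose numbered 32 instead of 73 in the cytosolic class, 32 instead of 70 in RNA processing and 7 instead of 24 among chromatin regulators. Of proteasome genes 5 rose, of glycolysis and tricarboxylic acid cycle genes 8, and of either kind of ribosomal protein none. Leaving out 1 library gave 719 to 1086 genes that rose and 1051 to 1303 that fell. Library totals alone as scaling gave 1430 higher and 1348 lower, DESeq2 938 and 1140, limma on log2(TPM + 1) 1281 and 1492, voom 1395 and 1785, replicate sets as a covariate 789 and 1162, and 1 TPM subtracted 1457 and 1758. Of 134 named genes that passed the test, the block lost 16, DESeq2 2 (17 others had no adjusted p there), replicate sets 8 and at least 1 of the fits without a library 21. In shares of estimated counts instead of TPM, KO minus WT moved from -0.454 to -0.617 percentage points for the secretory class, from -0.225 to -0.511 for the neuronal membrane class, from 0.363 to 0.50 for the cytosolic class and from 0.204 to 0.282 for RNA processing. These moves are not changes of effect size, because the shares have different bases and only TPM divides by gene length. In WT libraries the neuronal membrane class held 2.2% to 2.29% of TPM but 4.67% to 4.86% of estimated counts. The moves were not otherwise tested. Few genes of lowest level passed the test, and there both depth and the floor limit what can be seen.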

Other observations

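Of 25 auxiliary proteins of glutamate receptors, which set receptor trafficking and gating, 12 fell, 6 without KO library 1, and none rose, with a median log2 fold change of -0.14. The list's RNA medians were -0.17, -0.22 and -0.18 in KO and 0.02, -0.001, -0.04 and 0.02 in WT. Of 77 mitochondrial ribosomal protein genes, whose products translate the mitochondrial genome, 7 rose, a share close to the 8.15% of all tested genes. The number was 4 without KO library 3 or WT library 2, and none fell except 1 without KO library 2.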
